A study of Arabidopsis thaliana with 24 samples.

Results

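The genes described here were 41 nuclear genes of the photosynthetic light reactions in Arabidopsis thaliana, taken by their locus identifiers from a table of 32833 genes. They comprised 20 light-harvesting antenna genes (LHCB and LHCA), 12 nuclear genes for subunits of photosystem I (PSI) and 9 for subunits of photosystem II (PSII). Polysome-bound mRNA, the fraction carried by ribosomes, was sequenced from whole 9-day-old seedlings with strand-specific libraries, 24 in all and 3 for each of 8 groups. In the salt experiment, exa1-1 seedlings in 200 mM NaCl, exa1-1 seedlings in 1/2 MS medium, wild-type (WT) seedlings in 200 mM NaCl and WT seedlings in 1/2 MS were each treated for 60 min. In the heat experiment, exa1-1 seedlings at 39 °C, exa1-1 seedlings at 23 °C, WT seedlings at 39 °C and WT seedlings at 23 °C were each treated for 60 min. All seedlings were raised on 1/2 MS, a plant mineral medium, with sucrose. The labels give neither the ecotype, the light regime, the hour of sampling nor what distinguished the 1/2 MS controls from the 23 °C controls. exa1-1 is a mutant of EXA1, which encodes a GYF-domain protein known to associate with the translation machinery. The labels do not say whether replicates came from separate cultures, so p-values measure the spread between these samples, which may be technical. Total RNA was not analysed here, so a change in the amount of an mRNA cannot be told apart from a change in its ribosome loading. In whole seedlings, fewer cells of a type and less RNA per cell cannot be told apart either.

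In the thylakoid membrane of the chloroplast, PSII oxidises water and passes electrons through the cytochrome b6f complex and plastocyanin to PSI, which reduces ferredoxin. Chlorophyll-binding antenna proteins feed excitation energy into both photosystems. LHCB1, LHCB2 and LHCB3 form the trimers of light-harvesting complex II (LHCII). LHCB4, LHCB5 and LHCB6 are monomeric links between the trimers and the PSII core, and LHCA proteins form a belt on PSI. The reaction-centre proteins are encoded in the chloroplast, whereas the antenna and the peripheral subunits considered here are encoded in the nucleus, translated in the cytosol and imported. Transcription of these nuclear genes is known to be governed by light, the circadian clock and signals from the chloroplast.

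The antenna includes several near-identical gene copies, and their sequences are shown because they set how far reads can be told apart. LHCB1.1 (AT1G29920), LHCB1.2 (AT1G29910) and LHCB1.3 (AT1G29930) are intronless neighbours on chromosome 1 (chr1:10474656-10475969, minus strand; chr1:10472280-10473502, minus; chr1:10477885-10479114, plus), and LHCB1.4 (AT2G34430, chr2:14524607-14525918, plus) and LHCB1.5 (AT2G34420, chr2:14522524-14523568, minus) are neighbours on chromosome 2. The coding starts below are from RefSeq on TAIR10.1 (the authors' build was TAIR10, per the submitters' processing notes), each 5′ to 3′ from its start codon on the coding strand. They lie at chr1:10478071-10478220 (plus) for LHCB1.3, chr1:10475743-10475892 (minus) for LHCB1.1, chr1:10473097-10473246 (minus) for LHCB1.2, chr2:1824186-1824331 (minus) for LHCB2.1 and chr2:1800184-1800329 (minus) for LHCB2.2. Capitals mark bases that differ from LHCB1.3 among the LHCB1 copies, or from LHCB2.1 in LHCB2.2.
LHCB1.3: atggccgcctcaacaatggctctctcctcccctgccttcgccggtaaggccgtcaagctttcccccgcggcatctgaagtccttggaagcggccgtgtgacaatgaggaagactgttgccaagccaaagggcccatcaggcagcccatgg
LHCB1.1: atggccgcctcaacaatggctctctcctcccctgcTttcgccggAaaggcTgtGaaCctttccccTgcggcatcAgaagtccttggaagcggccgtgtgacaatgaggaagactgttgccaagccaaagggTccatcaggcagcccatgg
LHCB1.2: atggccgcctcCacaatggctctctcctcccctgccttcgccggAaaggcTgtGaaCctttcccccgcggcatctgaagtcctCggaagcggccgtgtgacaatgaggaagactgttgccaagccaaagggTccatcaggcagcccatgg
LHCB2.1: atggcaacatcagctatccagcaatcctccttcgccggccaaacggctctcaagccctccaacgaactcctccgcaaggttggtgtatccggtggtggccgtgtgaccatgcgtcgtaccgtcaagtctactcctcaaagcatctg
LHCB2.2: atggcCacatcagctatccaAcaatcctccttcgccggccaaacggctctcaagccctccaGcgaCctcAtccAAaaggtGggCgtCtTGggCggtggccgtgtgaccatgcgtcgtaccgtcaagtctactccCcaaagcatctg
LHCB1.1 differed from LHCB1.3 at 8 of these 150 bases and LHCB1.2 at 7, while LHCB2.2 differed from LHCB2.1 at 14 of 146. Over whole coding sequences, identity was 96.1% between LHCB1.1 and LHCB1.3, 86.8% to 96.4% over the 10 pairs of LHCB1 copies, and 96.6% between LHCB2.1 (AT2G05100) and LHCB2.2 (AT2G05070). Exact 100-base windows found in another gene made up 1.5% to 4.4% of the LHCB1 transcripts, 9.9% of LHCB2.1 and 12.4% of LHCB2.2. The other 34 members had none of that length. With 50-base windows the shares were 10.6% to 20.5%, 22.7% and 28.2%, and LHCA2 had 8.8%. With 150-base windows they were 0.0% for the LHCB1 copies, 0.2% and 0.3%. Values of the single LHCB1 copies, LHCB2.1 and LHCB2.2 are therefore uncertain to the extent that reads were assigned to the wrong copy, and the LHCB1 copies were also fitted as 1 summed row. The other duplicated pairs were more distinct than LHCB2.1 and LHCB2.2, though not than every pair of LHCB1 copies. Coding identity was 87.0% for PSAH1 and PSAH2, 86.3% for PSAD1 and PSAD2 and 83.6% for PSBO1 and PSBO2. It was 77.3% for PSAE1 and PSAE2 and 76.9% for PSBQ1 and PSBQ2.

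Library totals ran from 17861136 to 20629439 counts, and all 41 members passed the filter on low counts in every comparison. Levels are scaled FPKM, the deposited FPKM (fragments per transcript length and library size) divided by the library's TMM factor over the 24 libraries, and can be compared between genes because they are per length. EXA1 mRNA averaged 0.979 ± 0.0959, 1.36 ± 0.0972, 1.46 ± 0.207 and 1.29 ± 0.158 scaled FPKM in exa1-1 under NaCl, MS, 39 °C and 23 °C, against 13.5 ± 0.268, 9.3 ± 0.153, 17.1 ± 0.605 and 18.1 ± 0.423 in WT (SD, n = 3 each). The low EXA1 libraries were those labelled exa1-1. The salt marker RD29A was high in the NaCl libraries of both genotypes, and the heat shock gene HSP101 in the 39 °C libraries of both. Fold changes are log2 values with their standard error (SE) from edgeR's quasi-likelihood test on the counts, and a call means an adjusted p below 0.05 (Benjamini-Hochberg, over all genes tested). At 39 °C the choice of scaling mattered: the median of all genes in the heat comparison was -0.10 in both genotypes after TMM scaling and -1.05 in exa1-1 and -1.0 in WT on library totals alone, so changes in heat are read relative to that shift. In salt that median was -0.02 in exa1-1 and 0.00 in WT after TMM scaling and -0.20 and -0.15 on library totals, and between the controls (23 °C over MS) -0.02 in exa1-1 and -0.01 in WT after TMM scaling and -0.33 and -0.23 on library totals.

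As a class, the 41 mRNAs were most abundant on polysomes at 39 °C and least abundant in exa1-1 in MS. Together they took 7.31, 7.14 and 7.25% of all counts in the 3 exa1-1 libraries at 39 °C and 4.25, 4.48 and 4.43% in exa1-1 at 23 °C, against 9.21, 9.23 and 9.24% in WT at 39 °C and 5.33, 5.26 and 5.31% in WT at 23 °C. The corresponding shares were 2.05, 2.06 and 2.06% in exa1-1 under NaCl and 1.67, 1.66 and 1.4% in exa1-1 in MS, against 3.46, 3.5 and 3.45% in WT under NaCl and 2.12, 2.15 and 2.12% in WT in MS. Neither genotype's stressed and control libraries overlapped, and within each condition all exa1-1 libraries were below all WT libraries. By scaled FPKM, 37 of the 41 members had their highest group mean in WT at 39 °C and 4 in exa1-1 at 39 °C. The lowest mean was in exa1-1 in MS for 33 and in exa1-1 under NaCl for 8. These ranks rest on the TMM scaling. On library totals alone LHCB1.3 was not higher at 39 °C than at 23 °C, at a log2 fold change of -0.20 in exa1-1 and -0.02 in WT.

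The antenna dominated the sum. Its 20 genes added up to 65456, 63580 and 65157 scaled FPKM in exa1-1 at 39 °C and 21009, 22656 and 22255 in exa1-1 at 23 °C, against 80800, 80204 and 80475 in WT at 39 °C and 27295, 26610 and 26748 in WT at 23 °C. In the salt experiment the antenna sum was 7586, 7592 and 7695 in exa1-1 under NaCl and 5441, 5410 and 4276 in exa1-1 in MS, against 14245, 14386 and 14120 in WT under NaCl and 7644, 7798 and 7578 in WT in MS. The third exa1-1 MS library was the lowest of its group and stood apart from the other 2; results that turn on it are given with and without it. The 12 PSI genes summed to 19729, 19300 and 19854 scaled FPKM in exa1-1 and 25533, 25488 and 25929 in WT at 39 °C, and the 9 PSII genes to 26105, 25902 and 26580 in exa1-1 and 30983, 31121 and 31676 in WT. LHCB1.3, which encodes an LHCII trimer protein, was the most abundant member in all 8 groups and alone made up 15.7 ± 0.141% of the members' FPKM in exa1-1 at 39 °C, 30.6 ± 0.338% in exa1-1 at 23 °C, 16.1 ± 0.223% in WT at 39 °C and 28.8 ± 1.17% in WT at 23 °C (SD, n = 3 each). At the other end, LHCB2.3, another LHCB2 gene, lay at 0.8, 0.481 and 0.311 scaled FPKM in exa1-1 in MS and 0.824, 1.25 and 0.995 in WT in MS. This was near the limit of measurement, with 29, 17 and 12 and 32, 42 and 34 counts.

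**Figure D1:**
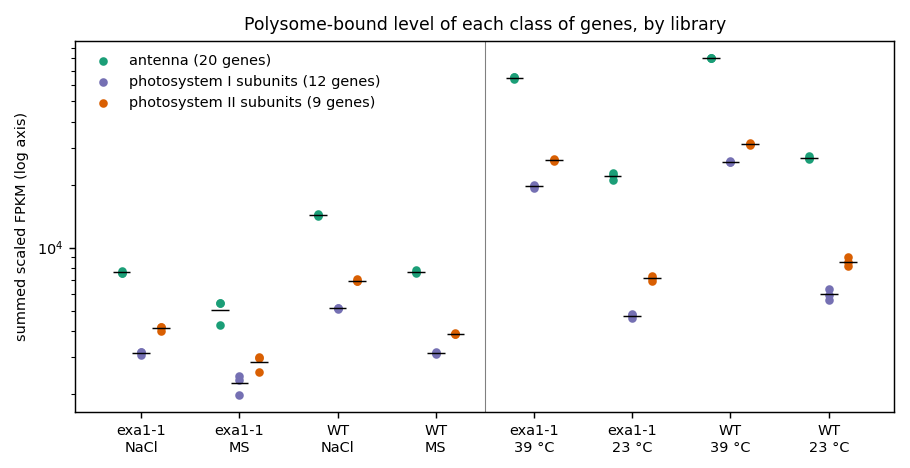
Summed scaled FPKM (log axis) of the 20 antenna, 12 PSI and 9 PSII genes in each of the 24 libraries; points are libraries and bars are group means. The antenna sum is the largest of the 3 in every group, and the 39 °C groups are the highest and exa1-1 in MS the lowest.

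Relative to the TMM scale, heat raised every member in both genotypes. All 41 were called higher at 39 °C than at 23 °C in exa1-1, with a median log2 fold change of 2.11, and all 41 in WT, with a median of 1.99. Among all genes tested, 38.0% were called higher and 41.4% lower in exa1-1, and 38.2% higher and 42.3% lower in WT. On library totals alone the members called were 39 higher and 1 lower in exa1-1, with a median of 1.15, and 39 higher and 0 lower in WT, with a median of 1.09. By class, the median log2 fold changes were 2.15 for the antenna, 2.06 for PSI and 1.90 for PSII in exa1-1, and 1.98, 2.03 and 1.94 in WT, so the classes differed little in the median. Within the antenna the spread was wide, and the genes of the LHCII trimer had medians of 2.84 in exa1-1 and 3.05 in WT, against 1.94 and 1.76 for the LHCA genes.

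LHCB1.1 had the largest change of the set. It stood at 1111, 1062 and 1093 scaled FPKM in exa1-1 at 39 °C, against 20.5, 18.4 and 21.7 in exa1-1 at 23 °C, a 54.0-fold difference (log2 5.75 ± 0.05, edgeR adjusted p = 4.64e-62). LHCB1.1 in WT stood at 1946, 1928 and 1923 at 39 °C, against 41.1, 42.9 and 39.3 at 23 °C, a 47.0-fold difference (log2 5.55 ± 0.05, edgeR adjusted p = 2.89e-62). The heated libraries lay far above the controls in both genotypes, with no overlap. LHCB2.1, which also encodes an LHCII trimer protein, reached 236, 229 and 235 in exa1-1 at 39 °C, against 8.75, 10.9 and 10.3 at 23 °C (log2 4.55 ± 0.06). LHCB2.1 in WT stood at 418, 443 and 438 at 39 °C, against 13.3, 12.2 and 14.9 at 23 °C (log2 5.00 ± 0.06). LHCB2.3 reached 57.7, 57.1 and 57.7 in exa1-1 at 39 °C, against 1.89, 2.21 and 3.44 at 23 °C (log2 4.52 ± 0.14). LHCB2.3 in WT stood at 76.2, 74.9 and 74.8 at 39 °C, against 2.72, 4.66 and 4.69 at 23 °C (log2 4.23 ± 0.13). For both LHCB2 genes every heated library was above every control library. LHCB2.2 rose by 3.25 in exa1-1 and 3.71 in WT (log2), LHCB1.2 by 2.84 and 3.05, and LHCB3, the third LHCII trimer protein, by 2.79 and 2.82. The smallest change among the antenna was that of LHCB1.3, at 17652, 16947 and 17553 scaled FPKM in exa1-1 at 39 °C, against 9874, 10716 and 10429 at 23 °C. LHCB1.3 in WT stood at 22256, 22251 and 21890 at 39 °C, against 12333, 11772 and 11677 at 23 °C. Its log2 fold change was 0.75 ± 0.03 in exa1-1 and 0.89 ± 0.03 in WT after TMM scaling, but -0.20 and -0.02 on library totals alone, so its direction depends on the scaling. LHCA5, a minor antenna protein that links PSI to the NADH dehydrogenase-like complex, was next at 0.93 in exa1-1 and 0.97 in WT, and its value in exa1-1 was -0.02 on library totals alone (edgeR adjusted p = 0.674).

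Among the PSI genes, heat raised PSAO most; its product helps dock LHCII to PSI. PSAO stood at 2153, 2153 and 2185 scaled FPKM in exa1-1 at 39 °C, against 288, 297 and 309 at 23 °C (log2 2.86 ± 0.04, edgeR adjusted p = 2.94e-46). PSAO in WT stood at 3200, 3188 and 3301 at 39 °C, against 354, 396 and 419 at 23 °C (log2 3.05 ± 0.04, edgeR adjusted p = 1.9e-47). PSAL and the PSAH copies encode other subunits of that docking side of PSI. PSAL rose by 2.50 in exa1-1 and 2.28 in WT (log2), PSAH1 by 2.44 and 1.99, and PSAH2 by 2.28 and 2.73. PSAG, which anchors the antenna belt, rose by 2.29 in exa1-1 and 2.21 in WT, so PSAH1 in WT was not among the larger changes. Among the PSII genes, PSBW, a small subunit that stabilises the PSII supercomplex, stood at 3000, 3001 and 3087 in exa1-1 at 39 °C, against 648, 634 and 660 at 23 °C (log2 2.23 ± 0.04). PSBW in WT stood at 3745, 3780 and 3949 at 39 °C, against 686, 741 and 818 at 23 °C (log2 2.35 ± 0.04). PSBO2, a copy of the manganese-stabilising protein of the oxygen-evolving complex, rose by 2.35 in exa1-1 and 2.23 in WT, and PSBY, a small membrane subunit, by 2.35 and 2.13. PSBX, another small membrane subunit, had the smallest change of the PSII genes, 1.14 in exa1-1 and 1.28 in WT. For PSAO and PSBW the heated and control libraries did not overlap in either genotype.

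Cell type markers also differed in the heat comparison. The summed level of 7 mesophyll stroma genes (such as those of the Calvin cycle) was 8844 to 8984 scaled FPKM in exa1-1 at 39 °C and 3292 to 3425 in exa1-1 at 23 °C, against 9016 to 9141 in WT at 39 °C and 3707 to 3917 in WT at 23 °C. All 7 were called higher in heat in both genotypes (5 higher and 2 lower on library totals alone). The summed level of 20 root markers was 351 to 358 in exa1-1 at 39 °C and 1133 to 1159 in exa1-1 at 23 °C, against 376 to 389 in WT at 39 °C and 1114 to 1157 in WT at 23 °C. Of these, 12 were called lower and 3 higher in exa1-1, and 13 lower and 3 higher in WT. Of 7 epidermis and guard cell markers, 5 were called lower in exa1-1 and 6 in WT, with 0 higher. The shares of all genes tested were 38.0% higher and 41.4% lower in exa1-1, and 38.2% and 42.3% in WT. No marker was at 0 in any group, and the part of these shifts in the members' changes was not tested.

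**Figure D2:**
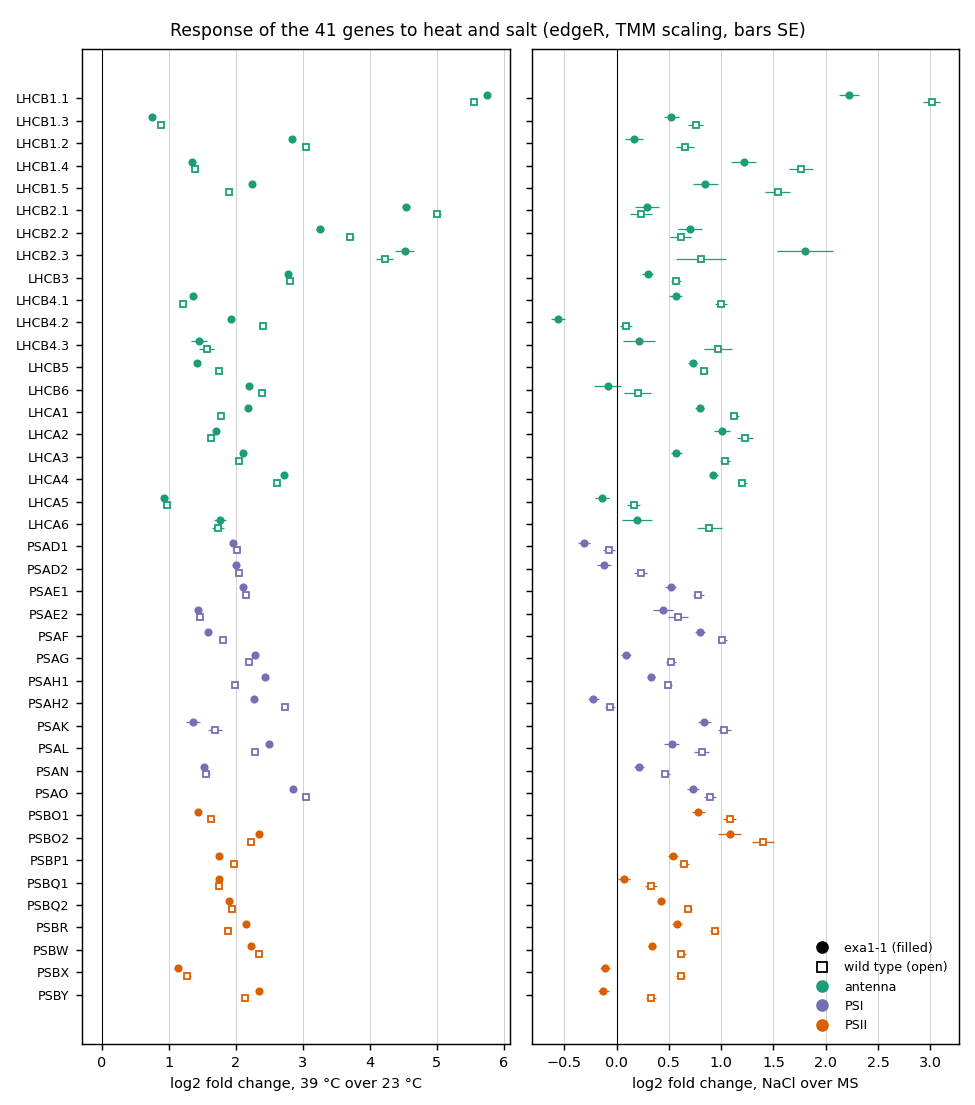
Log2 fold change with SE of each of the 41 members in heat (39 °C over 23 °C, left) and in salt (NaCl over MS, right); filled points are exa1-1 and open points WT. All points lie above 0 in heat after TMM scaling. On library totals alone, LHCB1.3 in exa1-1 is called lower at -0.20, and LHCB1.3 in WT and LHCA5 in exa1-1 are each at -0.02 and not called. In salt, exa1-1 points lie mostly below WT points and 5 called members of exa1-1 are below 0.

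Salt also raised most members, by less. In exa1-1, 28 of the 41 were called higher and 5 lower under NaCl than in MS, with a median log2 fold change of 0.52. Without the third exa1-1 MS library 27 were called higher and 7 lower, with a median of 0.41. Among all genes tested 35.9% were called higher and 37.2% lower. In WT, 37 were called higher and 0 lower, with a median of 0.76, against 36.5% higher and 35.4% lower among all genes. On library totals alone the split was 26 higher and 8 lower in exa1-1, with a median of 0.35, and 34 higher and 2 lower in WT, with a median of 0.61. The antenna had medians of 0.57 in exa1-1 and 0.86 in WT, PSI of 0.38 and 0.55, and PSII of 0.42 and 0.64.

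LHCB1.1 again changed most. It stood at 15.5, 15.5 and 16.4 scaled FPKM in exa1-1 under NaCl, against 3.75, 3.66 and 2.66 in MS (log2 2.22 ± 0.10, edgeR adjusted p = 4.13e-23). LHCB1.1 in WT stood at 49.7, 48.6 and 48.8 under NaCl, against 5.4, 6.1 and 6.68 in MS (log2 3.01 ± 0.08, edgeR adjusted p = 7.69e-31). The treated libraries lay above all controls in both genotypes, and those of WT were the highest. LHCB1.4 rose by 1.22 in exa1-1 and 1.77 in WT (log2), and LHCB1.5 by 0.85 and 1.54. LHCB2.3 rose by 1.80 ± 0.27 in exa1-1 and 0.81 ± 0.24 in WT, on few reads. Its counts were 64, 69 and 47 in exa1-1 under NaCl and 29, 17 and 12 in MS, against 53, 63 and 51 in WT under NaCl and 32, 42 and 34 in MS. The LHCA genes had medians of 0.68 in exa1-1 and 1.08 in WT, with LHCA2, part of the PSI antenna belt, at 1.01 and 1.23. LHCB2.1 was called higher in both genotypes, at 0.29 and 0.23, but this call was lost in exa1-1 without the first or the third MS library or the second NaCl library (0.17 to 0.28), and in WT without any 1 of the 6 libraries (0.22 to 0.26). LHCA5 was called higher in WT at 0.16, which was lost without the second NaCl library (0.11, edgeR adjusted p = 0.182) or, of the MS libraries, the second (0.15) or the third (0.16).

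PSAK, on the antenna side of PSI, and PSAF, which docks plastocyanin, led the PSI genes in salt. PSAK stood at 388, 396 and 361 scaled FPKM in exa1-1 under NaCl, against 209, 238 and 186 in MS (log2 0.84 ± 0.06). PSAK in WT stood at 674, 636 and 617 under NaCl, against 307, 320 and 313 in MS (log2 1.03 ± 0.06). Its treated and control libraries did not overlap in either genotype. PSAF rose by 0.80 in exa1-1 and 1.01 in WT, and PSAO by 0.73 and 0.89. Of the PSII genes, PSBO2 stood at 115, 120 and 120 in exa1-1 under NaCl, against 62.1, 61.1 and 43.5 in MS (log2 1.08 ± 0.11, edgeR adjusted p = 1.05e-05). PSBO2 in WT stood at 160, 162 and 156 under NaCl, against 59.5, 59.4 and 61.5 in MS (log2 1.4 ± 0.11, edgeR adjusted p = 1.29e-06). PSBO1, the more abundant copy, rose by 0.78 in exa1-1 and 1.08 in WT, and PSBR, which helps the oxygen-evolving proteins bind, by 0.58 and 0.94. All treated PSBO2 libraries were above all controls of their genotype.

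In exa1-1, 5 members were called lower under NaCl; in WT, none of the 5 was after TMM scaling. LHCB4.2, a copy of the CP29 linker between LHCII and the PSII core, stood at 33.5, 34.6 and 33.9 scaled FPKM in exa1-1 under NaCl, against 53.1, 53.8 and 42.1 in MS (log2 -0.56 ± 0.07, edgeR adjusted p = 2.18e-08). LHCB4.2 in WT stood at 81.9, 87.2 and 80.0 under NaCl, against 79.4, 76.9 and 76.9 in MS (log2 0.09 ± 0.06, edgeR adjusted p = 0.187). In exa1-1 the treated libraries were below all controls, whereas the WT values were close together. PSAD1, which carries the ferredoxin docking site of PSI, fell by 0.32 in exa1-1 (log2) and had -0.07 in WT, and PSAH2 fell by 0.22 in exa1-1 and had -0.06 in WT. On library totals alone both were called lower in WT too, PSAD1 at -0.22 (edgeR adjusted p = 8.49e-05) and PSAH2 at -0.21 (edgeR adjusted p = 0.000152). PSBY fell by 0.13 and PSBX by 0.11 in exa1-1, whereas they rose by 0.33 and 0.61 in WT. PSBX stood at 185, 173 and 176 in exa1-1 under NaCl, against 196, 199 and 176 in MS. PSBX in WT stood at 440, 442 and 418 under NaCl, against 277, 284 and 286 in MS. The exa1-1 values overlapped and the WT values did not. The call of PSBX in exa1-1 was lost without the first (-0.09) or the second (-0.08) MS library, and without the second (-0.09) or the third (-0.11) NaCl library. That of PSBY was lost without the second MS library (-0.09) or the third NaCl library (-0.10). PSBQ1, an oxygen-evolving complex protein that was not called in exa1-1 at 0.07, was called lower there on library totals alone, at -0.10 (edgeR adjusted p = 0.0392).

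In the salt experiment the mesophyll stroma markers summed to 1021 to 1045 scaled FPKM in exa1-1 under NaCl and 695 to 754 in exa1-1 in MS, against 1876 to 1909 in WT under NaCl and 1048 to 1064 in WT in MS. All 7 were called higher under NaCl in both genotypes. The 20 root markers summed to 552 to 572 in exa1-1 under NaCl and 1043 to 1093 in exa1-1 in MS, against 506 to 510 in WT under NaCl and 1141 to 1155 in WT in MS. Of these, 14 were called lower and 4 higher in each genotype. Of the 7 epidermis and guard cell markers, 2 were called higher and 4 lower in each genotype. The shares of all genes tested were 35.9% higher and 37.2% lower in exa1-1, and 36.5% and 35.4% in WT. Root markers thus moved opposite to the members, and the part of this shift in the members' changes was not tested.

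The balance of antenna to photosystem subunits differed between the experiments. The log2 ratio of summed antenna to summed PSI FPKM was 1.73, 1.72 and 1.71 in exa1-1 at 39 °C and 2.19, 2.25 and 2.22 in exa1-1 at 23 °C, against 1.66, 1.65 and 1.63 in WT at 39 °C and 2.28, 2.17 and 2.07 in WT at 23 °C. The heated libraries were below the controls in both genotypes, by a mean of 0.50 in exa1-1 and 0.52 in WT (log2), although every antenna gene was called higher after TMM scaling. Under NaCl it was 1.25, 1.26 and 1.33 in exa1-1 and 1.47, 1.49 and 1.47 in WT, and in MS 1.23, 1.15 and 1.11 in exa1-1 and 1.29, 1.29 and 1.29 in WT. It was higher under NaCl by 0.12 in exa1-1 and 0.18 in WT. The ratio to PSII was 1.33, 1.3 and 1.29 in exa1-1 at 39 °C and 1.60, 1.66 and 1.61 in exa1-1 at 23 °C, against 1.38, 1.37 and 1.35 in WT at 39 °C and 1.75, 1.64 and 1.57 in WT at 23 °C. It was lower in heat by 0.32 in exa1-1 and 0.29 in WT. In salt the ratio to PSII was 0.868, 0.86 and 0.941 in exa1-1 under NaCl, against 0.882, 0.845 and 0.745 in exa1-1 in MS. These values overlapped, and their mean difference was 0.07 with all libraries and 0.03 without the third exa1-1 MS library. In WT the difference was 0.05. Much of the heat difference lay with the LHCB1 copies, which held most of the antenna sum. Without them, the ratio to PSI was lower in heat by 0.19 in exa1-1 and 0.22 in WT, and the difference in the ratio to PSII was -0.02 in exa1-1 and 0.02 in WT. These ratios are within a library and do not depend on the scaling between libraries; they are descriptions of sums and were not tested.

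**Figure D3:**
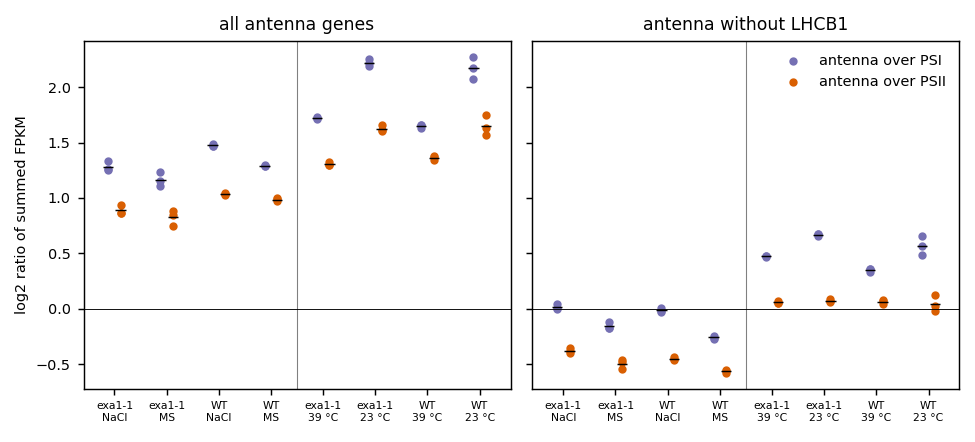
Log2 ratio of summed antenna FPKM to summed PSI or PSII subunit FPKM in each library, with all antenna genes and without the LHCB1 copies; points are libraries. The ratio to PSI lies near 1.72 in exa1-1 and 1.65 in WT at 39 °C, below 2.22 in exa1-1 and 2.17 in WT at 23 °C, and this gap narrows without the LHCB1 copies.

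The LHCB1 copies changed so unequally that the make-up of LHCB1 mRNA on polysomes differed between conditions. LHCB1.3 made up 46.4 ± 0.199% of LHCB1 FPKM in exa1-1 at 39 °C and 71.5 ± 0.175% in exa1-1 at 23 °C, against 46.3 ± 0.553% in WT at 39 °C and 66.1 ± 0.791% in WT at 23 °C (SD, n = 3 each). In the salt experiment it made up 87.2 ± 0.249% in exa1-1 under NaCl and 88.6 ± 0.418% in exa1-1 in MS, against 79.8 ± 0.446% in WT under NaCl and 85.3 ± 0.143% in WT in MS. The copy that took up most of the difference in heat was LHCB1.5, at 14937, 14404 and 14749 scaled FPKM in exa1-1 at 39 °C, against 2943, 3219 and 3120 at 23 °C (log2 2.25 ± 0.03). LHCB1.5 in WT stood at 16836, 16343 and 16924 at 39 °C, against 4428, 4431 and 4510 at 23 °C (log2 1.91 ± 0.03). The ratio of LHCB1.3 to LHCB1.1 FPKM was 16.0 ± 0.0918 in exa1-1 at 39 °C and 515 ± 58.9 in exa1-1 at 23 °C, against 11.4 ± 0.0804 in WT at 39 °C and 290 ± 14.1 in WT at 23 °C. Under NaCl it was 246 ± 3.65 in exa1-1, against 801 ± 36.6 in exa1-1 in MS, and 149 ± 2.08 in WT, against 717 ± 78.5 in WT in MS. In each of these pairs the treated libraries were all below the controls. The 8 and 7 differing bases shown above for LHCB1.1 and LHCB1.2 are what separates such copies in a read from the coding start. With the 5 copies summed, LHCB1 rose in heat by 1.34 in exa1-1 and 1.38 in WT, and in salt by 0.54 in exa1-1 and 0.85 in WT (log2).

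**Figure D4:**
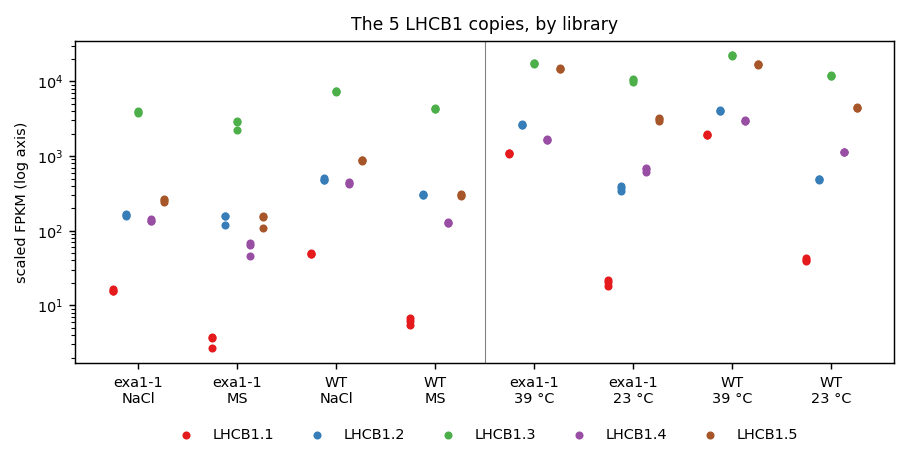
Scaled FPKM (log axis) of the 5 LHCB1 copies in each library of the 8 groups; points are libraries. LHCB1.3 is the highest copy in every group, and LHCB1.1 spans the widest range, between 2.66 in an exa1-1 MS library and 1946 in a WT 39 °C library.

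Other duplicated genes also shifted against each other. The ratio of LHCB2.1 to LHCB2.2 was 1.49 ± 0.0315 in exa1-1 at 39 °C and 0.609 ± 0.0815 at 23 °C, against 1.54 ± 0.0405 in WT at 39 °C and 0.627 ± 0.0415 at 23 °C (SD over 3 libraries). LHCB2.1 thus passed LHCB2.2 in heat in both genotypes. LHCB4.1 over LHCB4.2 was 26.2 ± 0.663 in exa1-1 under NaCl and 12.0 ± 0.131 in exa1-1 in MS, against 15.2 ± 0.443 in WT under NaCl and 8.06 ± 0.144 in WT in MS. In heat that ratio was lower, at 5.03 ± 0.031 in exa1-1 at 39 °C and 7.45 ± 0.0837 at 23 °C, against 3.83 ± 0.0766 in WT at 39 °C and 8.75 ± 0.442 at 23 °C. LHCB4.1 thus outweighed LHCB4.2 more strongly under NaCl and less strongly at 39 °C. The PSAH pair moved in opposite ways by genotype: PSAH1 over PSAH2 was 1.29 ± 0.0335 in exa1-1 at 39 °C and 1.15 ± 0.0794 at 23 °C, against 0.893 ± 0.0365 in WT at 39 °C and 1.49 ± 0.056 at 23 °C. PSAE1 over PSAE2, copies of a stromal subunit next to PSAD, was 1.68 ± 0.00918 in exa1-1 at 39 °C and 1.05 ± 0.0345 at 23 °C, against 1.98 ± 0.0238 in WT at 39 °C and 1.23 ± 0.0206 at 23 °C. PSBO1 over PSBO2 was 4.01 ± 0.033 in exa1-1 at 39 °C and 7.53 ± 0.14 at 23 °C, against 4.38 ± 0.117 in WT at 39 °C and 6.62 ± 0.269 at 23 °C. PSAD1 over PSAD2 hardly moved in heat, at 2.4 ± 0.0401 in exa1-1 at 39 °C and 2.5 ± 0.215 at 23 °C, against 2.35 ± 0.0648 in WT at 39 °C and 2.39 ± 0.0787 at 23 °C, and was higher in the salt experiment, between 4.06 in WT under NaCl and 5.78 in exa1-1 in MS. PSBQ1 over PSBQ2 stayed between 1.18 in WT under NaCl and 1.66 in exa1-1 in MS.

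The comparison of exa1-1 with WT within a condition asks how the mutation itself relates to these mRNAs, and they were lower in exa1-1 in all 4 conditions. Under NaCl, 40 of the 41 were called lower and 0 higher, with a median log2 fold change of -0.75. Among all genes tested 17.1% were called lower and 15.3% higher. In MS, 36 were lower and 0 higher with a median of -0.54, against 19.5% lower and 16.5% higher among all genes. At 39 °C, 35 were lower and 1 higher with a median of -0.36, against 13.7% and 15.2%. At 23 °C, 33 were lower and 3 higher with a median of -0.36, against 17.8% and 17.1%. The LHCII trimer genes had the most negative medians of the antenna groups under NaCl, at -1.46, and had -0.93 in MS, -0.83 at 39 °C and -0.53 at 23 °C.

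Under NaCl the largest differences were in LHCB1.5, at 255, 239 and 269 scaled FPKM in exa1-1, against 895, 894 and 849 in WT (log2 -1.79 ± 0.12, edgeR adjusted p = 3.75e-06), then LHCB1.4 (-1.66) and LHCB1.1 (-1.63). PSBX stood at 185, 173 and 176 in exa1-1, against 440, 442 and 418 in WT (log2 -1.28 ± 0.04, edgeR adjusted p = 1.32e-24). The genotypes did not overlap for either gene. The PSI genes were led by PSAD2 (-1.02), PSAG (-0.97) and PSAO (-0.90), and the PSII genes after PSBX by PSBR (-0.97) and PSBQ2 (-0.80). LHCB2.3 was the 1 member not called, at 0.07. In MS, LHCB3 stood at 29.7, 32.2 and 27.9 in exa1-1, against 67.5, 70.1 and 69.0 in WT (log2 -1.19 ± 0.05, edgeR adjusted p = 8.59e-22), again without overlap, and was followed by LHCB1.4 (-1.11) and LHCB1.5 (-1.09). The largest PSI differences in MS were in PSAO (-0.74), PSAD2 (-0.66) and PSAH2 (-0.61), and the largest PSII differences in PSBR (-0.61), PSBX (-0.56) and PSBQ2 (-0.54). The 5 members not called in MS were LHCB4.1 (-0.06), LHCB4.3 (-0.36), LHCB6 (-0.37), PSBO1 (-0.04) and PSBO2 (-0.10). LHCB2.3 was called lower in MS at -0.93, which was lost without the third exa1-1 library (-0.65) or the second WT library (-0.76).

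At 39 °C, LHCB2.1 stood at 236, 229 and 235 scaled FPKM in exa1-1, against 418, 443 and 438 in WT (log2 -0.89 ± 0.05, edgeR adjusted p = 2.03e-22). LHCB3 stood at 926, 924 and 939 in exa1-1, against 1703, 1717 and 1692 in WT (log2 -0.87 ± 0.04, edgeR adjusted p = 1.01e-25). Neither gene's genotypes overlapped. LHCB1.4 (-0.85), PSAH2 (-0.81), PSAN (-0.65), a lumenal subunit that aids plastocyanin, PSAO (-0.58), PSBX (-0.58), PSBQ2 (-0.44) and PSBY (-0.36) completed the largest differences of each class. PSBO2 was the 1 member called higher in exa1-1, at 1155, 1108 and 1150, against 1036, 1029 and 1061 in WT (log2 0.13 ± 0.04, edgeR adjusted p = 0.00446); on library totals alone it was 0.08 and not called. At 23 °C the largest were LHCB1.1 (-1.03), LHCB3 (-0.84), LHCB1.4 (-0.81), PSAH1 (-0.72), PSAN (-0.62), PSAE1 (-0.45), PSBR (-0.60), PSBY (-0.57) and PSBX (-0.43). There 3 members were called higher in exa1-1. PSBO1 stood at 1591, 1727 and 1734, against 1488, 1435 and 1468 in WT (log2 0.20 ± 0.03), and PSBP1 at 683, 711 and 713, against 625, 660 and 666 in WT (log2 0.11 ± 0.03). LHCB4.2 stood at 225, 242 and 243, against 232, 218 and 204 in WT (log2 0.12 ± 0.04). PSBO1 and PSBP1, both proteins of the oxygen-evolving complex, showed no overlap, while LHCB4.2 overlapped and lost its call without the third WT library (0.09, edgeR adjusted p = 0.0597). At 23 °C, LHCA2, LHCB2.3, LHCB4.1, LHCB4.3 and LHCB5, which were called lower with log2 fold changes no more negative than -0.69, also lost their calls without 1 library. The number of members called ran from 32 to 35 over these fits.

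Mesophyll stroma markers were mostly lower in exa1-1 as well, except at 39 °C. Of the 7, all were called lower in exa1-1 under NaCl and in MS, 5 were lower at 23 °C, and at 39 °C 2 were lower and 1 higher. Their median log2 fold changes were -0.87 under NaCl, -0.49 in MS, -0.05 at 39 °C and -0.21 at 23 °C. Beside these, the members' medians were -0.75 under NaCl, -0.54 in MS, -0.36 at 39 °C and -0.36 at 23 °C. Of the 20 root markers, 2 were higher and 5 lower in exa1-1 under NaCl, 7 higher and 3 lower in MS, 3 higher and 1 lower at 39 °C, and 4 higher and 4 lower at 23 °C. The epidermis and guard cell markers had 0 higher and 1 lower under NaCl, 1 and 2 in MS, 2 and 1 at 39 °C, and 2 and 3 at 23 °C. The shares of all genes tested were 15.3% higher and 17.1% lower under NaCl and 16.5% and 19.5% in MS. They were 15.2% and 13.7% at 39 °C and 17.1% and 17.8% at 23 °C. The part of these differences in the members' differences was not tested.

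**Figure D5:**
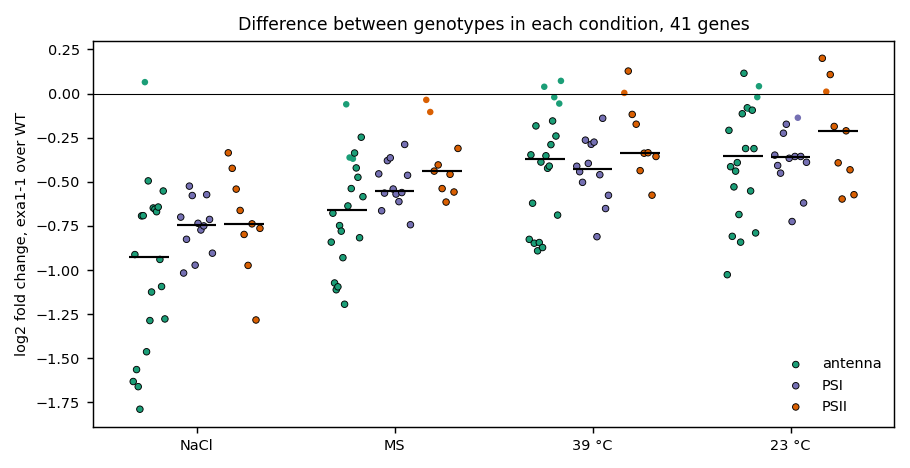
Log2 fold change of each member in exa1-1 over WT under NaCl, in MS, at 39 °C and at 23 °C, by class; outlined points are called and bars are class medians. Nearly all points lie below 0, with 40, 36, 35 and 33 members called lower; PSBO2 at 39 °C and LHCB4.2, PSBO1 and PSBP1 at 23 °C are called higher.

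Whether salt acted differently in the mutant was tested by the interaction of salt and genotype. Of the 41, 1 member was called with a greater and 27 with a smaller log2 change in exa1-1 than in WT, with a median difference of -0.28. Changes were compared with their sign, so a fall in exa1-1 counts as smaller where WT rose or fell less. Among all genes tested 10.6% were called in the positive and 9.36% in the negative direction. The antenna was called for 13 members with a smaller and 1 with a greater change, PSI for 7 smaller and PSII for 7 smaller. LHCB1.1 differed by -0.79 ± 0.13 (edgeR adjusted p = 2.28e-05), LHCB4.3 by -0.76, PSAG by -0.43, PSAD2 by -0.35, PSAE1 by -0.26, PSBY by -0.45 and PSBR by -0.36. PSBX differed by -0.73 ± 0.06 (edgeR adjusted p = 9.43e-12). LHCB2.3 was the member with a greater change in exa1-1 (0.99 ± 0.37, edgeR adjusted p = 0.0488); it rests on the low counts given above and was lost without any 1 of 9 of the 12 libraries (0.71 to 1.07). The third exa1-1 MS library weighed on the count: without it, 37 members had a smaller and 0 a greater change, with a median of -0.36, and over all single omissions the number called ran from 23 to 37. LHCB1.4 was called at -0.55 but lost without any 1 of 10 libraries (-0.58 to -0.49), and LHCA5, PSAD1, PSAH1 and PSBO1 each lost the call without 1 or more libraries, at -0.28 to -0.25, -0.25 to -0.18, -0.17 to -0.15 and -0.30 to -0.26. With the LHCB1 copies summed, LHCB1 differed by -0.30, which missed the threshold (edgeR adjusted p = 0.0739).

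In heat the interaction went both ways. Of the 41, 8 were called with a greater and 12 with a smaller change in exa1-1, with a median difference of -0.04 (-0.09 without the third WT library at 23 °C), against 8.78% positive and 8.10% negative among all genes; on library totals alone the split was 6 greater and 14 smaller. LHCB4.2 stood at 918, 888 and 898 scaled FPKM in exa1-1 at 39 °C and 225, 242 and 243 in exa1-1 at 23 °C. LHCB4.2 in WT stood at 1180, 1139 and 1136 at 39 °C and 232, 218 and 204 at 23 °C, an interaction of -0.47 ± 0.06 (edgeR adjusted p = 4.87e-09). WT was thus higher than exa1-1 at 39 °C but not at 23 °C. LHCB2.2 (-0.45) and LHCB2.1 (-0.45) also had smaller changes in exa1-1, which for these copies are uncertain as to assignment of reads. PSAH2 stood at 596, 561 and 583 in exa1-1 at 39 °C and 118, 118 and 125 in exa1-1 at 23 °C. PSAH2 in WT stood at 1035, 1033 and 987 at 39 °C and 148, 159 and 152 at 23 °C, an interaction of -0.45 ± 0.06 (edgeR adjusted p = 5.11e-08). PSAH1, its copy, stood at 751, 727 and 774 in exa1-1 at 39 °C and 130, 146 and 138 in exa1-1 at 23 °C. PSAH1 in WT stood at 884, 927 and 916 at 39 °C and 225, 227 and 233 at 23 °C, an interaction of 0.45 ± 0.05 (edgeR adjusted p = 1.08e-08). The copies differed in opposite directions: PSAH2 had the larger gap between genotypes at 39 °C and PSAH1 at 23 °C. PSAF differed by -0.22, PSBR by 0.26, PSBP1 by -0.23 and PSBY by 0.22. LHCB1.1 was called at 0.20 and lost without any 1 of 4 libraries (0.11 to 0.19), and LHCB1.3 at -0.14 and lost without the second exa1-1 library at 39 °C (-0.12). LHCB4.1 was called at 0.15 and lost without any 1 of 5 libraries (0.08 to 0.15), and PSAO at -0.19 and lost without the third WT library at 39 °C (-0.17). With all 24 libraries in 1 fit, 13 members were called in place of 20, and LHCB1 summed over its copies differed by -0.05 (edgeR adjusted p = 0.473).

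The control groups of the experiments differed for all members. All 41 were called higher at 23 °C than in MS in exa1-1, with a median log2 fold change of 1.56, and all 41 in WT, with a median of 1.44. Among all genes tested 33.1% were called higher and 33.6% lower in exa1-1, and 33.3% and 32.8% in WT. Here the classes were unequal, with medians of 2.17 for the antenna, 1.26 for PSII and 0.91 for PSI in exa1-1, and 1.76, 1.21 and 0.74 in WT. LHCB1.5 stood at 2943, 3219 and 3120 scaled FPKM in exa1-1 at 23 °C, against 156, 155 and 109 in MS. LHCB1.5 in WT stood at 4428, 4431 and 4510 at 23 °C, against 295, 308 and 300 in MS, the largest change (4.47 ± 0.10 in exa1-1 and 3.89 ± 0.09 in WT). LHCB1.4 (3.47 and 3.15), LHCB1.1 (2.59 and 2.77) and LHCA6, a minor PSI antenna gene (3.23 and 2.60), were also high. PSAN (1.87 and 2.02), PSAD2 (1.95 and 1.68) and PSBO2 (2.01 and 1.88) led the subunits, and PSAH2 was lowest at 0.49 and 0.22 (on library totals alone 0.00 in WT, and not called). All 7 mesophyll stroma markers were likewise called higher at 23 °C in both genotypes. The medium, temperature, handling and hour of these controls cannot be told apart from the labels, so salt and heat values were each read against their own control only.

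The steps between and after the photosystems were represented by nuclear genes of electron transfer and ATP synthesis. Counts in this and the following lists stand beside the shares of all genes given above for each comparison. Of 13 electron transfer and ATP synthase genes, all 13 were called higher in heat in both genotypes (on library totals alone 9 higher and 3 lower in exa1-1, and 8 and 2 in WT), led by FD1, a ferredoxin that accepts electrons from PSI (2.86 in exa1-1 and 2.98 in WT, log2), and LFNR2, which reduces NADP with them (2.46 and 2.36). Under NaCl 8 were higher and 4 lower in exa1-1, and 12 higher and 1 lower in WT. PGRL1B, of cyclic electron flow, rose by 1.2 and 1.21, and ATPD, the delta subunit of the ATP synthase, fell by 0.43 and 0.21. In exa1-1 over WT, 0 were higher and 12 lower under NaCl, 1 and 10 in MS, 1 and 4 at 39 °C, and 2 and 5 at 23 °C. FD2, the main leaf ferredoxin, was lower in exa1-1 in each condition, with log2 fold changes of -1.04 under NaCl, -0.77 in MS, -0.40 at 39 °C and -0.51 at 23 °C, and PETE1, a plastocyanin, was at -0.98 under NaCl.

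Of 11 genes for PSII repair, assembly and state control, all 11 were called higher in heat in both genotypes (on library totals alone 7 higher and 0 lower in exa1-1, and 8 and 2 in WT), and under NaCl 8 were higher and 1 lower in exa1-1 and 11 higher and 0 lower in WT. PSBS, which switches on the dissipation of excess light energy, rose in heat by 2.85 in exa1-1 and 2.56 in WT, and VAR2, a thylakoid protease that removes damaged PSII protein, rose under NaCl by 1.07 and 1.41. In exa1-1 over WT, 0 were higher and 10 lower under NaCl and 2 higher and 4 lower in MS, but 6 were higher and 3 lower at 39 °C, and 2 higher and 5 lower at 23 °C. PSBS was lower in exa1-1, at -1.03 under NaCl and -0.56 in MS, and VAR1, the partner of VAR2, was higher by 0.33 at 39 °C. Chlorophyll synthesis had 13 of its 14 listed genes tested: 10 were higher and 1 lower in heat in exa1-1, and 12 and 0 in WT (on library totals alone 4 and 8 in exa1-1, and 7 and 6 in WT), while under NaCl 6 were higher and 3 lower in exa1-1, and 9 and 1 in WT. CHLH, a magnesium chelatase subunit, rose in heat by 2.07 in exa1-1 and 2.44 in WT, and PORC, a protochlorophyllide reductase, rose under NaCl by 1.26 and 1.14. In exa1-1 over WT, 0 were higher and 12 lower under NaCl, 0 and 8 in MS, 1 and 6 at 39 °C, and 2 and 2 at 23 °C. GUN4, an activator of the chelatase, was lower in exa1-1 in each, at -1.07 under NaCl, -0.48 in MS, -0.84 at 39 °C and -0.32 at 23 °C.

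The 7 genes that import antenna proteins and place them in the membrane moved in both directions. In heat 5 were called higher and 1 lower in exa1-1 and 5 higher and 2 lower in WT. ALB3, the thylakoid insertase, was at 0.74 in exa1-1 after TMM scaling and -0.21 on library totals alone. On library totals 0 were called higher and 7 lower in exa1-1 and 0 higher and 5 lower in WT, so directions in this list depend on the scaling. Under NaCl 3 were higher and 3 lower in exa1-1, and 4 higher and 1 lower in WT. CPSRP54, of the chloroplast signal recognition particle, rose by 0.58 and 0.81, while CPSRP43, its antenna-binding partner, fell by 0.49 in exa1-1 and rose by 0.18 in WT (0.03 on library totals alone). In exa1-1 over WT, 0 were higher and 5 lower under NaCl, 0 and 1 in MS, 3 and 1 at 39 °C, and 4 and 1 at 23 °C, with CPSRP43 at -1.05 under NaCl and TOC75, the import channel, at 0.78 at 23 °C. Of 15 regulators of photosynthesis genes, 5 were higher and 9 lower in heat in each genotype (on library totals alone 3 and 10 in exa1-1, and 3 and 12 in WT), and under NaCl 6 were higher and 9 lower in exa1-1 and 8 higher and 6 lower in WT. SIG5, a stress-induced sigma factor of the plastid RNA polymerase, averaged 18.6 ± 0.797 scaled FPKM in exa1-1 at 39 °C and 1.43 ± 0.184 at 23 °C, against 25.7 ± 1.04 in WT at 39 °C and 1.27 ± 0.0653 at 23 °C (SD over 3 libraries; log2 3.70 in exa1-1 and 4.33 in WT). GNL and GNC, GATA factors that promote greening, fell in heat in both genotypes, GNL by 3.21 in exa1-1 and 2.71 in WT, and GNC by 2.97 in exa1-1 and 1.8 in WT. PIF4, a phytochrome-interacting repressor of greening, rose under NaCl by 2.18 in exa1-1 and 1.56 in WT. In exa1-1 over WT, 1 regulator was higher and 10 lower under NaCl, 3 and 4 in MS, 3 and 6 at 39 °C, and 3 and 6 at 23 °C. GNC was at -1.18 under NaCl and -1.88 at 39 °C, and HY5, which binds promoters of light-induced genes, at 0.47 under NaCl and 0.60 in MS.

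The promoters of LHCB1.1 and LHCB1.3 are shown because these copies had coding sequences 96.1% identical and yet the largest and the smallest change of the antenna in heat. Each is the 300 bases before the RefSeq transcript start on TAIR10.1, read 5′ to 3′ on the gene's strand, at chr1:10475970-10476269 (minus) for LHCB1.1 and chr1:10477585-10477884 (plus) for LHCB1.3. Capitals mark a match to the CCA1-binding site AAAAATCT.
LHCB1.1: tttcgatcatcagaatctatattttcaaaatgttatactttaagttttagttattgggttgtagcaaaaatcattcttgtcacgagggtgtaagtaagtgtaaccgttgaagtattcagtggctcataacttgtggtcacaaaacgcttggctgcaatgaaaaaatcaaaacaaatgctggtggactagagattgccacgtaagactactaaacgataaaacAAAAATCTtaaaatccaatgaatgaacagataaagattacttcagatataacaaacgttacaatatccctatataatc
LHCB1.3: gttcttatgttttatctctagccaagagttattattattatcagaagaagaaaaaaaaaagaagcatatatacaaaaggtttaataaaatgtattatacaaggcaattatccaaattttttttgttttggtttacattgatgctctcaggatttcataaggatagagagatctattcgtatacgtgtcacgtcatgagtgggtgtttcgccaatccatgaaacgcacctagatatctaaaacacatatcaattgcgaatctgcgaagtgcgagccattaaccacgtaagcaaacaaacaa
The match in LHCB1.1 starts 78 bases before the transcript start, and LHCB1.3 held none of the searched motifs in this window. The annotated transcript starts of the copies lie at unlike distances from their start codons. The bases between transcript start and start codon were not searched, nor were other forms of the CCA1-binding site. The windows therefore do not show that LHCB1.3 lacks such a site. On either strand of the same window, the CCA1-binding site was found in 5 of the 41 members (12.2%: LHCB1.1, LHCB1.4, LHCA4, PSAN and PSAO), against 7.9% of 27443 promoters of all genes. The G-box CACGTG, bound by HY5 and PIF proteins, was found in 8 members (19.5%), against 7.1% of all promoters, and the I-box core GATAAG in 9 members (22.0%), against 14.5%. The evening element AAAATATCT was found in LHCA5 alone (2.4% of members), against 2.8% of all, and the heat shock element core GAANNTTC in LHCB5 alone (2.4%), against 11.5% of all. These are matches of letters, which do not show binding, and no member was set apart by them in a test.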

How the data were processed

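Polysome-bound mRNA of 24 libraries, 3 in each of 8 groups read from the sample titles, was analysed. The authors aligned reads with HISAT2 2.0.4 and counted them with HTSeq 0.6.1p1 on build TAIR10, per the submitters' processing notes; strand, overlap and multi-mapping settings and the annotation release are not given in the sources used here. The authors deposited raw counts for 32833 genes, of which 5150 had no count. FPKM for the other 27683 genes, also deposited by the authors, equalled counts over length and column total to within a relative difference of 1.26e-09, checked on 21088 genes. Depth was 17861136 to 20629439 counts per library, and 0 pairs of libraries were identical.

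Tests on the counts used R 4.3.3 with edgeR 4.0.16 (and limma 3.58.1 for alternatives). Low genes were removed with filterByExpr (a minimum count of 10 and a minimum total of 15) and libraries scaled by TMM, with robust quasi-likelihood tests with Benjamini-Hochberg adjustment at 0.05 over all genes. The 12 comparisons came from fits of 12 libraries per experiment and of 24 for the controls. The common biological coefficient of variation (salt 0.0455, heat 0.0539) gives the spread between replicates. The code was tested on simulated data. Sums, ratios, sequences and figures were made with Python 3.11.15, pandas 2.3.3, numpy 2.4.6, scipy 1.17.1 and matplotlib 3.10.9. Sequences, positions and motif matches come from RefSeq on TAIR10.1, and the length implied by the authors' FPKM equalled the RefSeq transcript length for 32 of the 41 members.

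The members and the lists (electron transfer and ATP synthase; PSII repair, assembly and state control; chlorophyll synthesis; import and targeting; LHC-like stress proteins; regulators; core clock; mesophyll stroma, root, and epidermis and guard cell markers) were chosen with earlier results of these data known. Named were up to 3 called members of each class with the largest change, members against the majority, the duplicated copies, and up to 2 called genes of each list and direction. Alternatives were RLE scaling, library totals alone, TMM without the members and organellar genes, DESeq2 1.42.0, limma on log2(FPKM + 1) and log2(FPKM + 0.1), no filter, a filter of 1 CPM in 6 libraries, a replicate block, pooled fits, each library left out in turn, and the LHCB1 copies summed. Libraries with the same replicate number did not deviate together (0 of 36 correlations over 0.1, range -0.0489 to 0.0498), so the numbers were not used as pairs. The batch field has the same entry in all samples and could not be used.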

Additional observations from a re-analysis of the deposited data

Results flagged for a closer look

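The results below were flagged because the effect of the treatment differed between the genotypes by the interaction term of edgeR's quasi-likelihood test. A negative log2 value means that the change, taken with its sign, was lower in exa1-1 than in WT. In salt this includes members that fell in exa1-1. In salt, 28 members were called. Among the antenna they were led by LHCB2.3 (0.99, on few reads), LHCB1.1 (-0.79) and LHCB4.3 (-0.76), a rarely expressed CP29 copy. LHCB2.3 lost its call when any 1 of 9 libraries was left out. Among the PSI genes they were led by PSAG (-0.43), PSAD2 (-0.35) and PSAE1 (-0.26), and among the PSII genes by PSBX (-0.73), PSBY (-0.45) and PSBR (-0.36). Mesophyll stroma markers also rose less in exa1-1 than in WT, with medians of 0.33 and 0.72, and their part in these differences was not tested.

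In heat, 20 members were called. The antenna genes LHCB4.2 (-0.47), LHCB2.2 (-0.45) and LHCB2.1 (-0.45) had smaller changes in exa1-1. Among the PSI genes PSAH2 (-0.45) and PSAF (-0.22) had smaller changes in exa1-1 and PSAH1 (0.45) a greater one. Among the PSII genes PSBP1 (-0.23) had a smaller change in exa1-1, and PSBR (0.26) and PSBY (0.22) greater ones. PSBR and PSBY thus went opposite ways in salt and in heat, which share no libraries.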

How the results depend on the processing

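The number of members called stayed within 1.5 times the reported number under every alternative, with 1 exception: 13 in place of 20 for the heat interaction with all 24 libraries in 1 fit. Sizes in heat and salt depend on scaling, as TMM and library totals differ. On library totals, log2(FPKM + 1) and log2(FPKM + 0.1), the members' median log2 fold change was 1.15, 1.15 and 1.15 for heat in exa1-1 and 1.09, 1.08 and 1.09 for heat in WT. In the same order it was 0.35, 0.35 and 0.35 for salt in exa1-1, 0.61, 0.53 and 0.61 for salt in WT, -0.70, -0.70 and -0.70 for exa1-1 over WT under NaCl, 1.25, 1.16 and 1.26 for 23 °C over MS in exa1-1, and 1.22, 1.2 and 1.21 in WT. With the LHCB1 copies summed it was 0.66 for salt in WT and 1.35 for 23 °C over MS in WT. On these 3 scales LHCB1.3 reversed in heat, at -0.20, -0.20 and -0.20 in exa1-1 and -0.016, -0.015 and -0.015 in WT, as did LHCA5 in exa1-1 (-0.0226, -0.0225 and -0.0228); PSBQ1 reversed in salt in exa1-1 on library totals (-0.10). Of the single values of members, 8551 were unchanged as to call, 161 lost a call, 74 gained one and 10 reversed. The 8551 include values called in neither fit, whatever their direction.

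Leaving out each library in turn moved the median to 0.41 to 0.57 for salt in exa1-1, 0.67 to 0.77 for salt in WT, -0.36 to -0.24 for the salt interaction, -0.092 to -0.033 for the heat interaction and 1.37 to 1.46 for 23 °C over MS in WT, and the antenna to PSII difference for salt in exa1-1 to 0.026 to 0.094. Without the LHCB1 copies, the antenna to PSI difference was -0.19 for heat in exa1-1, -0.22 for heat in WT and 0.25 for salt in WT; the antenna to PSII difference was -0.015 for heat in exa1-1, 0.020 for heat in WT, which reverses it, and 0.11 for salt in WT. From summed counts the antenna to PSII difference for heat in exa1-1 was -0.28. With the replicate number as a block, members called were 34 for salt in exa1-1, 37 for exa1-1 over WT at 23 °C and 29 for the salt interaction; the numbers do not pair the samples, and other counts were as reported.

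Depth limits LHCB2.3 in the salt experiment, and shared reads limit the single LHCB1 and LHCB2 copies. The cause of the differences between settings was not tested.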

Other observations

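Stress relatives of the antenna proteins also rose in heat after TMM scaling. ELIP1, an early light-induced protein that binds chlorophyll freed under stress, averaged 594 ± 8.19 scaled FPKM in exa1-1 at 39 °C and 1.26 ± 0.107 in exa1-1 at 23 °C, against 634 ± 1.11 in WT at 39 °C and 0.641 ± 0.236 in WT at 23 °C (SD, n = 3 each). Under NaCl it averaged 11.6 ± 0.582 in exa1-1, against 0.813 ± 0.322 in exa1-1 in MS, and 9.25 ± 0.401 in WT, against 0.768 ± 0.0827 in WT in MS. ELIP2 rose by 3.38 in exa1-1 and 3.77 in WT under NaCl (log2), and by 4.53 and 3.85 in heat. Of the 7 genes of this list, all were called higher in heat in both genotypes (5 higher and 1 lower in exa1-1 and 6 higher and 0 lower in WT on library totals alone), and under NaCl 4 were higher and 1 lower in exa1-1 and 5 higher and 0 lower in WT. OHP1, a small protein with 1 helix that serves PSII assembly, was lower in exa1-1 in every condition, at -1.01 (log2) under NaCl, -1.20 in MS, -0.65 at 39 °C and -0.24 at 23 °C. In exa1-1 over WT, 2 of the list were higher and 4 lower under NaCl, 1 and 3 in MS, 0 and 2 at 39 °C, and 2 and 2 at 23 °C.

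Among core clock genes, CCA1, a morning transcription factor that binds LHCB promoters, averaged 4.56 ± 0.393 scaled FPKM in exa1-1 at 39 °C and 0.146 ± 0.0769 in exa1-1 at 23 °C, against 4.88 ± 0.372 in WT at 39 °C and 0.325 ± 0.174 in WT at 23 °C, and 1.77 ± 0.309 in exa1-1 under NaCl and 0.0768 ± 0.0567 in exa1-1 in MS, against 1.19 ± 0.0486 in WT under NaCl and 0.104 ± 0.0525 in WT in MS (SD, n = 3 each). TOC1, an evening repressor of CCA1, fell in heat by 1.78 in exa1-1 and 1.73 in WT (log2). Under NaCl in WT, TOC1 rose by 0.72 while CCA1 rose by 3.46 ± 0.31. CCA1 was near the limit of measurement in the MS and 23 °C controls of both genotypes, so the size of its rise is uncertain. LHY, another gene of this list, was not called in salt, at 0.40 in exa1-1 and -0.64 in WT. Of 12 clock genes, 6 were called higher and 2 lower in heat in exa1-1, against 38.0% and 41.4% of all genes, and 6 and 4 in WT, against 38.2% and 42.3%. On library totals the counts were 4 and 6 in exa1-1 and 5 and 7 in WT. Of the 11 tested in salt, 4 were higher and 2 lower in exa1-1, against 35.9% and 37.2% of all genes, and 6 and 3 in WT, against 36.5% and 35.4%. The list as a whole was not set apart from other genes by these counts in heat and salt. In exa1-1 over WT, 3 of the 11 tested were higher and 3 lower under NaCl, against 15.3% and 17.1% of all genes. In MS, 3 were higher and 1 lower, against 16.5% and 19.5%. At 39 °C, 0 of the 12 were higher and 6 lower, against 15.2% and 13.7%. At 23 °C, 0 were higher and 7 lower, against 17.1% and 17.8%.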
